A study of Mus musculus with 18 samples.

Results

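The DNA replication machinery was examined as 41 genes chosen by name: the 6 subunits of the MCM2-7 helicase, CDC45 and the 4 GINS subunits, the 3 subunits of RPA, polymerase α-primase, polymerases δ and ε, the sliding clamp PCNA with its RFC loader, the enzymes that finish the lagging strand, and ribonucleotide reductase. Of these 41, 36 had reads in every one of 18 libraries and were tested among 6929 genes that met the same condition. The cells were MIN6, a mouse insulinoma line used as a model of the pancreatic β cell. Control cells received DMSO for 18 h, and the treated cells were given cyclopiazonic acid (CPA) at 200 µM, either for 1 h, called CPA1, or for 18 h, called CPA18. CPA inhibits SERCA, the pump that loads calcium into the endoplasmic reticulum, and thereby causes ER stress. Each treatment was measured in 3 independent experiments by mRNA-seq of poly(A) RNA and by Ribo-seq, which reads the mRNA fragments covered by ribosomes. Ribosome occupancy (ribo-ocp) is the Ribo-seq value of a gene divided by its mRNA-seq value.

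Before S phase the MCM2-7 ring is loaded onto origins, and its union with CDC45 and GINS turns it into the helicase that opens the double helix. RPA coats the exposed single strands, polymerase α-primase lays down primers, and polymerases ε and δ extend them on the leading and lagging strand while PCNA, loaded by RFC, holds them to the template. RNase H2, FEN1, DNA2 and ligase I remove the primers and join the lagging-strand pieces, and ribonucleotide reductase makes the deoxyribonucleotides. Many of these genes are known targets of E2F, the transcription factor family that acts at the start of S phase.

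Library totals ran from 168129 reads in the CPA18 Ribo-seq library of experiment 1 to 4755030 reads in the CPA18 mRNA-seq library of experiment 2. The median member had 57, 70.5 and 137 reads per library in control, CPA1 and CPA18 mRNA-seq. Its reads in Ribo-seq numbered 68, 33 and 22.5, and 15 members had under 10 reads in some CPA18 Ribo-seq library. The 2 control libraries of experiment 2 carry a title and a description that name opposite assays, and they were placed by their titles, which name the same assays as the column headers of the deposited table. All 11 β cell markers had reads in every mRNA-seq library. Their summed RPKM (reads scaled to transcript length and library total) was 158510 to 464430 in control and 44211 to 135580 in CPA18, while the summed lists of acinar and duct, fibroblast, endothelial and immune markers reached at most 3.20 in any library. The list of other islet endocrine cells summed to 42.951 to 117.23 RPKM in control and 23.77 to 91.4 in CPA18. With values set relative to the library total, the median gene of all genes tested moved by 0.38 in mRNA-seq and by 0.42 in Ribo-seq on the log2 scale between control and CPA18, and by 0.50 and 0.33 between CPA1 and CPA18. Changes of single members are given as fitted, without that shift taken off, and are to be read beside it. Medians over the members are also given against the median gene. In such bulk libraries, fewer cells in S phase and less RNA per cell cannot be told apart.

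After 1 h of CPA no member passed the test in either assay, which is near the share over all genes. In mRNA-seq, 0 of 36 members passed the test against control (edgeR's quasi-likelihood test, adjusted p under 0.05), where 0.938% of all genes did. At an unadjusted p under 0.05 the GINS subunit Gins4 alone was lower, where 4.13% of all genes were, and the fitted log2 changes ran from -0.82 (Gins4) to 0.52 (Prim2, the large primase subunit), with a smallest adjusted p of 0.433. In Ribo-seq, 0 of 36 members passed, where 6.67% of all genes did, and the changes ran from -0.74 for Rpa3 to 0.85 for Dna2, with a smallest adjusted p of 0.178 for Mcm2. At an unadjusted p under 0.05, Mcm2, Mcm4 and Rpa1 were higher and Rpa3 lower, where 10.4% of all genes were higher and 7.97% lower. DESeq2 called 0 members in mRNA-seq and 0 in Ribo-seq, where it called 0.534% and 4.91% of all genes. Without experiment 3, 2 members rose in Ribo-seq, where 4.55% of all genes were called.

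After 18 h of CPA the mRNA of 14 of 36 members was higher than in control and that of 0 was lower. Over all genes tested, 27.0% rose and 7.89% fell in this comparison, and 34.9% passed in either direction. Members with an increase were found in the helicase, CDC45-GINS, RPA, all 3 polymerases, the clamp loader and RNase H2, and none in ribonucleotide reductase. Relative to CPA1, 16 of 36 members were higher and 0 lower, where 33.8% of all genes rose, 5.77% fell and 39.6% passed. Both comparisons use the same CPA18 libraries. The median member changed by 0.57 against control and by 0.53 against CPA1, which is 0.19 and 0.03 above the median gene. When the libraries were scaled by TMM, which sets most genes to no change, 9 members rose and 1 fell against control, and 16.3% of all genes rose and 16.0% fell. Against CPA1, TMM gave 8 members up and 2 down, where 15.3% and 15.8% of all genes were. The 5 members that lost their call against control under TMM were Mcm3 (0.34, adjusted p = 0.109), Mcm6 (0.30, adjusted p = 0.0934), Cdc45 (0.61, adjusted p = 0.0551), Pola2 (0.68, adjusted p = 0.114) and Rfc3 (0.43, adjusted p = 0.153). Against CPA1, Mcm2, Mcm6, Mcm7, Gins3, Pola2, Rfc3, Rfc5 and Rnaseh2a lost theirs.

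**Figure D1:**
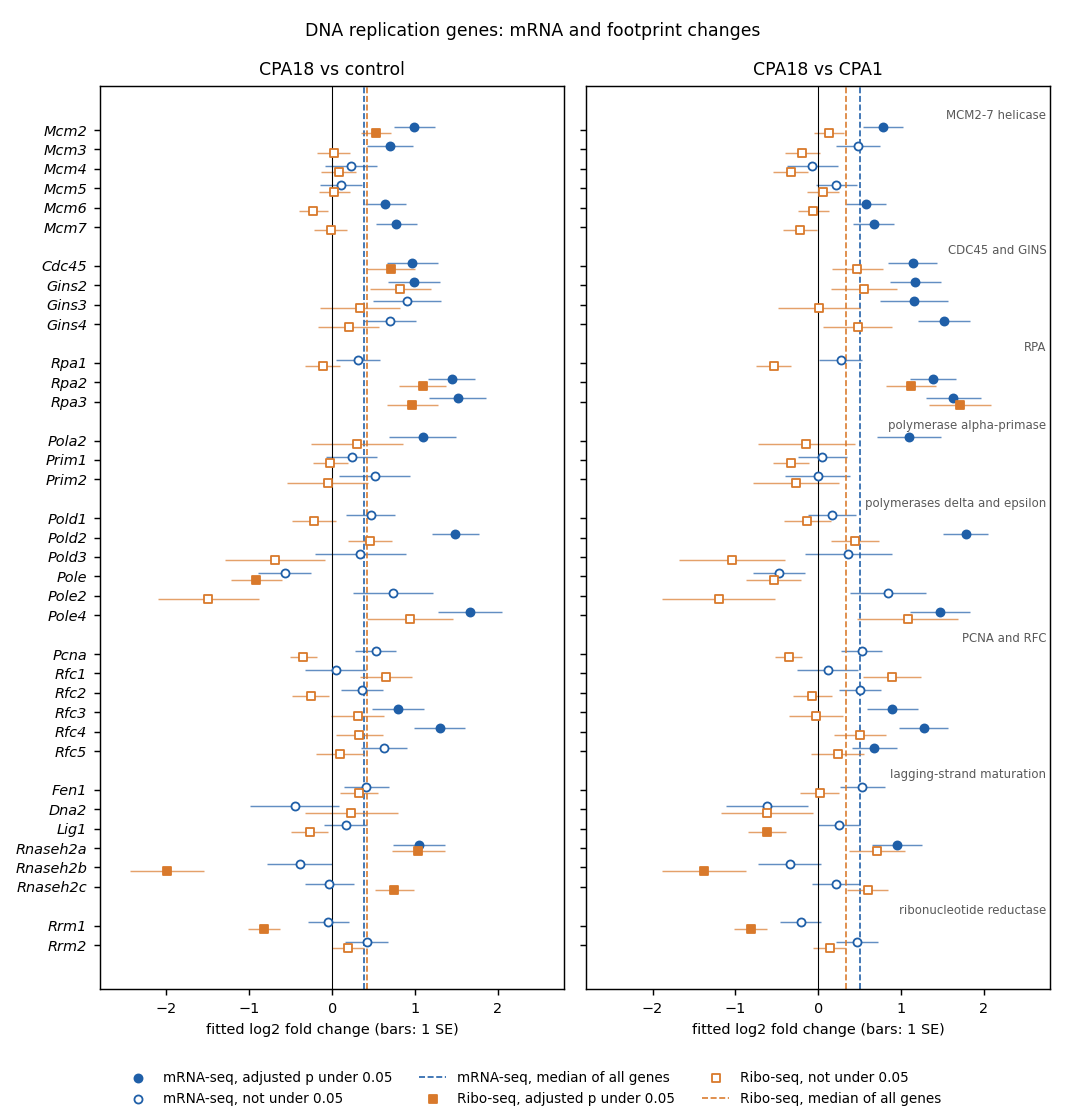
Fitted log2 changes of 36 replication genes, in rows by complex, for CPA18 against control and CPA18 against CPA1, with mRNA-seq as circles, Ribo-seq as squares, bars of 1 SE, filled symbols for an adjusted p under 0.05 and dashed lines at the medians of all genes tested. The mRNA symbols lie at a median of 0.57 and 0.53 and the Ribo-seq symbols at 0.14 and -0.04, and Rnaseh2b is the lowest Ribo-seq symbol in both panels.

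Within the MCM2-7 helicase, 4 of 6 subunits rose in mRNA-seq against control, where 27.0% of all genes rose. The median subunit lay 0.29 above the median gene. Mcm2 mRNA was at 43.7, 66.0 and 96.8 RPKM in control experiments 1 to 3, at 54.1, 70.8 and 111 in CPA1 and at 66.7, 165 and 189 in CPA18. It was higher in CPA18 within each experiment, although the values of experiment 1 lie low in every treatment and the pooled groups overlap. The fitted log2 change was 0.99 (SE 0.25, adjusted p = 0.000567). Mcm7 rose by 0.77, Mcm3 by 0.70 and Mcm6 by 0.64, while Mcm4 (0.23, adjusted p = 0.59) and Mcm5 (0.11, adjusted p = 0.77) did not pass. Under 18 other settings of the fit, the call held in 16 for Mcm2, 10 for Mcm7, 5 for Mcm3 and 4 for Mcm6. The subunits form 1 ring with a single copy of each, and their mRNA changes spread over 0.11 to 0.99.

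Mcm2 was also the only helicase subunit that rose in Ribo-seq. Its Ribo-seq values were 88.6, 75.7 and 76.4 RPKM in control, 109, 115 and 93.0 in CPA1 and 132, 93.2 and 120 in CPA18, so that the control and CPA18 values did not overlap. The change was 0.53 (SE 0.18, adjusted p = 0.0176). It was 0.15 under TMM, with an adjusted p of 0.593. The other 5 subunits had Ribo-seq changes between -0.23 (Mcm6) and 0.08 (Mcm4), all short of the threshold and all below the 0.42 of the median gene.

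CDC45 and GINS complete the active helicase. Cdc45 mRNA was at 22.2, 17 and 28.1 RPKM in control and at 20.5, 55.6 and 54.8 in CPA18. Experiment 1 showed no increase, and experiments 2 and 3 lay above every control value. The change was 0.97 (SE 0.31, adjusted p = 0.00787). Cdc45 in Ribo-seq was at 20.3, 23.5 and 29.8 RPKM in control and 52.4, 27.4 and 42.4 in CPA18, higher within each experiment by a fitted 0.71 (SE 0.29, adjusted p = 0.0477). This Ribo-seq change rested on 36, 47 and 70 control reads against 19, 12 and 51 CPA18 reads. Its call held in 2 of 18 other settings of the fit.

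Gins2 mRNA was at 19.9, 34.4 and 34.1 RPKM in control, 16.1, 26.8 and 33.9 in CPA1 and 28.1, 65.2 and 85.4 in CPA18. It was highest in CPA18 in each experiment, with a change of 0.98 (SE 0.31, adjusted p = 0.00795) against control. Gins3 and Gins4 had 0.90 (adjusted p = 0.074) and 0.70 (adjusted p = 0.071) against control, and rose by 1.16 and 1.52 against CPA1. Gins1 had no read in the control mRNA-seq library of experiment 1 and was not tested.

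RPA, the complex that covers single-stranded DNA, gave the members that rose in both assays and in both comparisons with CPA18. Rpa2 mRNA was at 19.4, 39.2 and 37.8 RPKM in control, 16.8, 30.8 and 55.1 in CPA1 and 38.4, 113 and 119 in CPA18. Within each experiment CPA18 was the highest treatment, and the change against control was 1.44 (SE 0.29, adjusted p = 1.58e-05). Rpa2 in Ribo-seq was at 29.4, 35 and 25.9 RPKM in control and at 76.8, 33.2 and 82.1 in CPA18. It was higher in experiments 1 and 3 and slightly lower in experiment 2, with a fitted change of 1.09 (SE 0.28, adjusted p = 0.00128).

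Rpa3, the smallest subunit, was at 8.79, 38.1 and 19.0 RPKM in control mRNA-seq and at 52.9, 70.6 and 67.9 in CPA18. All CPA18 values lay above all control values, with a change of 1.51 (SE 0.34, adjusted p = 0.000167). The control mRNA value of experiment 1 rested on 3 reads. In Ribo-seq Rpa3 went from 57.6, 50.9 and 70.5 RPKM in control to 127, 143 and 96.5 in CPA18, again without overlap, a rise of 0.97 (SE 0.31, adjusted p = 0.0112). Against CPA1 the Ribo-seq changes were 1.12 for Rpa2 and 1.71 for Rpa3. Rpa1, the large DNA-binding subunit, had 0.31 in mRNA-seq and -0.11 in Ribo-seq against control and passed in neither.

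In polymerase α-primase, Pola2, the regulatory subunit, was at 3.20, 3.81 and 4.16 RPKM in control mRNA-seq and 4.70, 12.4 and 6.73 in CPA18. The groups did not overlap and the mRNA rose by 1.09 (SE 0.40, adjusted p = 0.0237). Its Ribo-seq values were 1.52, 5.39 and 2.70 RPKM in control and 2.48, 4.11 and 4.52 in CPA18, which overlapped, with a change of 0.30 (adjusted p = 0.72). The primase subunits Prim1 and Prim2 passed in neither assay, with mRNA changes of 0.24 and 0.51 and Ribo-seq changes of -0.02 and -0.05.

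Polymerase δ had the member with the smallest adjusted p in mRNA-seq, the accessory subunit Pold2. Pold2 mRNA was at 13.0, 53.3 and 61.6 RPKM in control, 15.7, 31.2 and 57.0 in CPA1 and 54.8, 128 and 164 in CPA18. The control value of experiment 1 was far below those of the other two, and CPA18 exceeded control within each experiment by a fitted 1.49 (SE 0.28, adjusted p = 3.98e-06). Pold2 in Ribo-seq was at 40.3, 43.5 and 49.8 RPKM in control and 32.9, 60.3 and 80.8 in CPA18. Those groups overlapped, and the change of 0.46 did not pass (adjusted p = 0.19). The catalytic subunit Pold1 had 0.46 in mRNA-seq and -0.22 in Ribo-seq, and Pold3 had 0.34 and -0.69; neither passed.

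The polymerase ε subunits went apart. Pole4, a small histone-fold subunit, was at 6.80, 6.10 and 4.66 RPKM in control mRNA-seq and 13.3, 15.0 and 23.6 in CPA18. The groups did not overlap, and at 1.66 (SE 0.39, adjusted p = 0.00025) this was the largest mRNA change among the 36 members in that comparison. The catalytic subunit Pole was at 17, 11.3 and 11.8 RPKM in control Ribo-seq and 1.66, 6.87 and 9.07 in CPA18. All CPA18 values lay below all control values, and Pole fell by 0.92 in Ribo-seq (SE 0.30, adjusted p = 0.0144), while its mRNA change of -0.57 did not pass (adjusted p = 0.15). The Ribo-seq change rested on 100, 75 and 92 control reads against 2, 10 and 36 CPA18 reads. Under TMM the Pole mRNA passed too, at -0.95 (adjusted p = 0.00434).

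Pole2, the second subunit of polymerase ε, stood at the threshold in Ribo-seq with -1.49 (SE 0.61, adjusted p = 0.0505). It rested on 14, 17 and 17 reads in the control libraries and on 1, 1 and 3 reads in the CPA18 libraries. Its mRNA change was 0.73 (adjusted p = 0.23).

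Pcna had the highest RPKM of the members in every Ribo-seq library. Pcna mRNA was at 213, 114 and 143 RPKM in control and 183, 229 and 236 in CPA18, while its Ribo-seq values were 579, 676 and 703 in control and 482, 528 and 527 in CPA18. The Ribo-seq values of CPA18 all lay below those of control and the mRNA values overlapped, but neither change passed, with 0.52 in mRNA-seq (adjusted p = 0.087) and -0.35 in Ribo-seq (adjusted p = 0.089). Under TMM Pcna passed in Ribo-seq at -0.72 (adjusted p = 0.000472).

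Of the RFC loader, Rfc4 mRNA was at 24.9, 33.1 and 33.4 RPKM in control and 41.9, 89.5 and 94.4 in CPA18. The groups did not overlap, and it rose by 1.30 (SE 0.31, adjusted p = 0.000323). Rfc4 in Ribo-seq was at 57.4, 55.1 and 43.5 RPKM in control and 62.9, 52.0 and 67.5 in CPA18, which overlapped, with a change of 0.33 (adjusted p = 0.40). Rfc3 mRNA rose by 0.80, Rfc5 rose against CPA1 only (0.68, and 0.62 with an adjusted p of 0.066 against control), and Rfc1 and Rfc2 passed in no comparison.

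The 3 subunits of RNase H2, which removes RNA from DNA, spread over -1.99 to 1.04 in Ribo-seq against control. The catalytic subunit Rnaseh2a was at 11, 28.2 and 24.4 RPKM in control mRNA-seq and 19.6, 47.2 and 60.3 in CPA18, and at 19.8, 21.6 and 26.9 in control Ribo-seq against 31.3, 44.7 and 57.9 in CPA18. It was higher in every experiment in both assays, by 1.05 (SE 0.31, adjusted p = 0.00472) and 1.04 (SE 0.32, adjusted p = 0.00766). Rnaseh2c rose in Ribo-seq by 0.75 (SE 0.23, adjusted p = 0.00888), with an mRNA change of -0.03.

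Rnaseh2b went the other way. Its mRNA was at 7.69, 11.4 and 8.87 RPKM in control and 8.6, 6.88 and 6.68 in CPA18, a change of -0.39 that did not pass (adjusted p = 0.46). Its Ribo-seq values were 32.5, 25.1 and 47.4 RPKM in control, 30.9, 28.9 and 9.93 in CPA1 and 7.95, 13.1 and 7.23 in CPA18. All CPA18 values lay below all control values, and the CPA1 value of experiment 3 lay among them. The Ribo-seq change of -1.99 (SE 0.45, adjusted p = 0.000214) rested on 40, 35 and 77 control reads against 2, 4 and 6 CPA18 reads. Of the other lagging-strand enzymes, Fen1 and Dna2 passed in no comparison, and Lig1, the ligase, fell by 0.62 in Ribo-seq against CPA1 (adjusted p = 0.0391) and had -0.27 against control.

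In ribonucleotide reductase, the control values of Rrm1, the large subunit, lay close together. It was at 39.9, 42.3 and 39.6 RPKM in control mRNA-seq, 42.7, 38.0 and 57.5 in CPA1 and 39.1, 36 and 43.7 in CPA18, and the groups overlapped. In Ribo-seq Rrm1 was at 91.4, 94.7 and 93.8 RPKM in control, 101, 111 and 70.2 in CPA1 and 50.6, 50.5 and 54.2 in CPA18. The CPA18 values lay below every control and CPA1 value. Rrm1 fell by 0.82 in Ribo-seq (SE 0.19, adjusted p = 0.000367) with an mRNA change of -0.04 (adjusted p = 0.91). The small subunit Rrm2 had 0.42 in mRNA-seq and 0.19 in Ribo-seq and passed in neither.

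**Figure D2:**
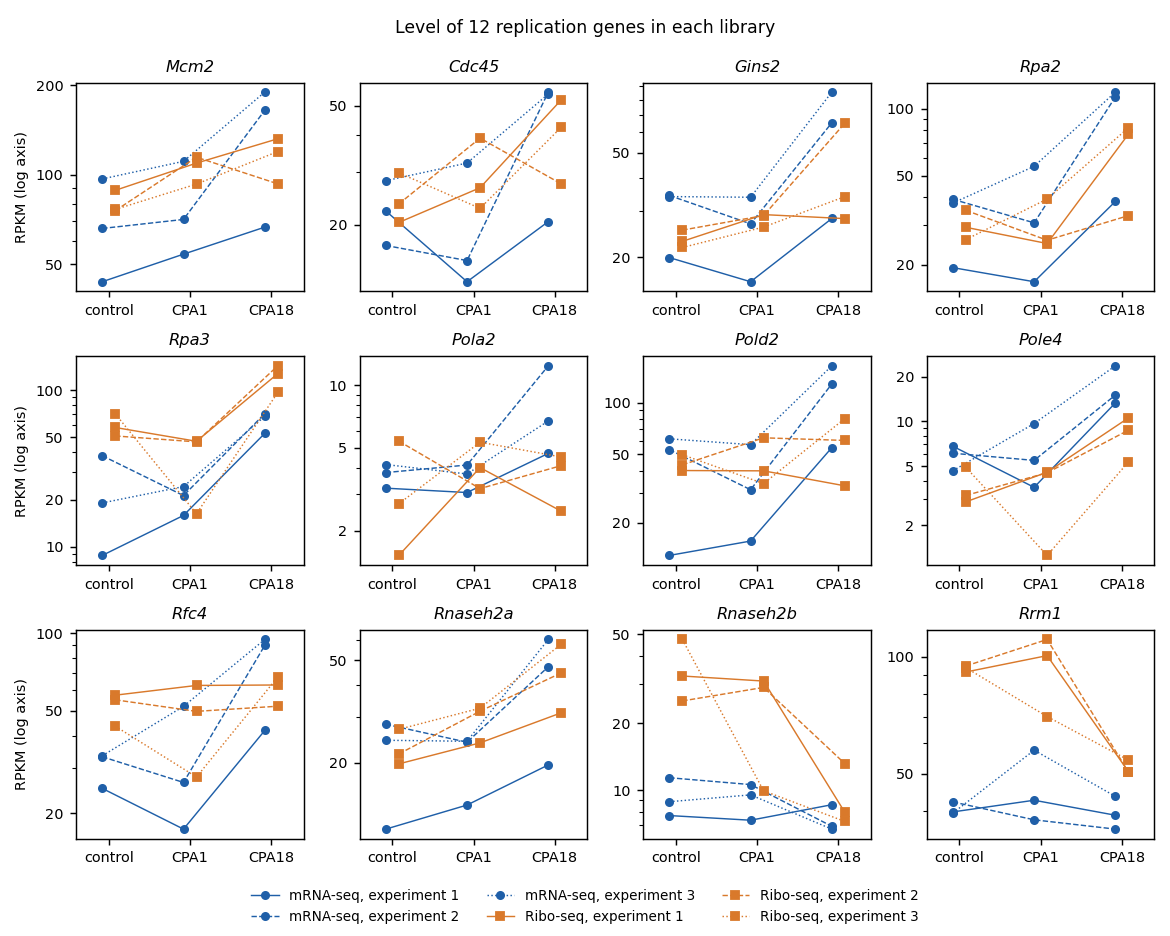
RPKM of 12 replication genes in each library on a log axis, by treatment, assay and experiment, 1 panel per gene. Rrm1 shows mRNA values that overlap between treatments and CPA18 Ribo-seq values of 50.6, 50.5 and 54.2 below every other one, and Rpa3 shows CPA18 above control in both assays.

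In Ribo-seq as a whole, 6 of 36 members rose and 3 fell against control, where 25.6% of all genes rose, 6.25% fell and 31.8% passed in either direction. Those that rose were Mcm2, Cdc45, Rpa2, Rpa3, Rnaseh2a and Rnaseh2c, and those that fell were Pole, Rnaseh2b and Rrm1. Against CPA1, 2 rose (Rpa2 and Rpa3) and 3 fell (Lig1, Rnaseh2b and Rrm1), where 18.2% of all genes rose, 5.41% fell and 23.6% passed. The median member had 0.14 against control and -0.04 against CPA1, which is 0.28 and 0.38 below the median gene. Under TMM scaling the Ribo-seq split turned: 1 member rose and 8 fell against control, where 11.9% of all genes rose and 12.2% fell, and 1 rose and 8 fell against CPA1, where 8.76% and 10.3% did. The 8 that fell against control under TMM were Mcm6, Pole, Pole2, Pcna, Rfc2, Lig1, Rnaseh2b and Rrm1. Pole, Rnaseh2b and Rrm1 thus fell under both scalings, while of the 6 that rose, Rpa2 was the only one still called under TMM.

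Set side by side, the fitted changes against control were positive in both assays for 20 members and negative in both for 3. For 11 members the mRNA change was positive and the Ribo-seq change negative, and for 2 it was the reverse.

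The ratio of both assays was compared next, to ask whether ribosomes on these mRNAs kept pace with the mRNA. No single member passed edgeR's test of ribosome occupancy: 0 of 36 were called in CPA1 against control, in CPA18 against control or in CPA18 against CPA1, where 0.0866%, 0.476% and 0.0722% of all genes were. DESeq2 called 2 members lower against control, Pcna (-0.92, adjusted p = 0.000855) and Mcm6 (-0.88, adjusted p = 0.025), where it called 0.851% of all genes. Against CPA1 it called Pcna (-0.76, adjusted p = 0.00662) and Mcm7 (-0.76, adjusted p = 0.0461) lower, where it called 0.606%, and in CPA1 against control it called 0. At an unadjusted p under 0.05, 0 members differed in CPA1 against control. In CPA18 against control 9 members were lower at that level, namely Pole2, Pcna, Mcm6, Pold2, Rnaseh2b, Mcm7, Rrm1, Rfc4 and Mcm3, and Rnaseh2c was higher, where 3.46% of all genes were lower and 5.72% higher. The smallest adjusted p was 0.261 (Pole2). The test had little power for genes drawn at random from all those tested. Of 200 such genes simulated with a log2 fall of 1 in CPA18 Ribo-seq, it called 3.0%. The median member had a higher RPKM than the median gene in every library, and power for the members themselves was not simulated. Against CPA1, 11 members were lower and 0 higher at an unadjusted p under 0.05, where 3.82% of all genes were lower, with a smallest adjusted p of 0.374 (Pold2).

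As a group, the members lay low in occupancy after 18 h. The fitted occupancy change against control was negative for 33 of 36 members and 46.7% of all genes, with a median of -0.53 where the median gene had 0.05. Against CPA1 it was negative for 33 of 36 members and 58.4% of all genes, with a median of -0.62 where the median gene had -0.11. In CPA1 against control the medians were 0.09 for the members and 0.16 for all genes. The exceptions against control were Rfc1 (0.60), Dna2 (0.69) and Rnaseh2c (0.77).

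The same held within each experiment against control. The median member lay 0.66, 0.60 and 0.35 below the median gene in experiments 1, 2 and 3, and 28, 28 and 25 of 36 members were below it. The occupancy of 16 members (14.7% of all genes) was lower than control in all 3 experiments, and that of 17 members (17.5% of all genes) lay below the median gene in all 3. Against CPA1 the medians were 0.78, 0.58 and 0.19 below the median gene, and 18 members (16.6% of all genes) were lower in all 3 experiments. Among the 20 members with at least 10 reads in every library, 18 had a negative change against control, with a median of -0.44. The 46.7% over all genes is not limited to genes with that many reads.

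Rrm1 had close replicate values in occupancy too in control and CPA18, though not in CPA1. It was 2.29, 2.24 and 2.37 in control, 2.36, 2.92 and 1.22 in CPA1 and 1.3, 1.4 and 1.24 in CPA18. The control and CPA18 values did not overlap, and the fitted change was -0.79 (SE 0.31, adjusted p = 0.41). Pcna occupancy was 2.72, 5.94 and 4.90 in control and 2.64, 2.30 and 2.24 in CPA18, lower in each experiment but by little in experiment 1. Pold2 occupancy was 3.11, 0.816 and 0.808 in control and 0.600, 0.470 and 0.494 in CPA18, where the control of experiment 1 stood apart through its low mRNA value.

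**Figure D3:**
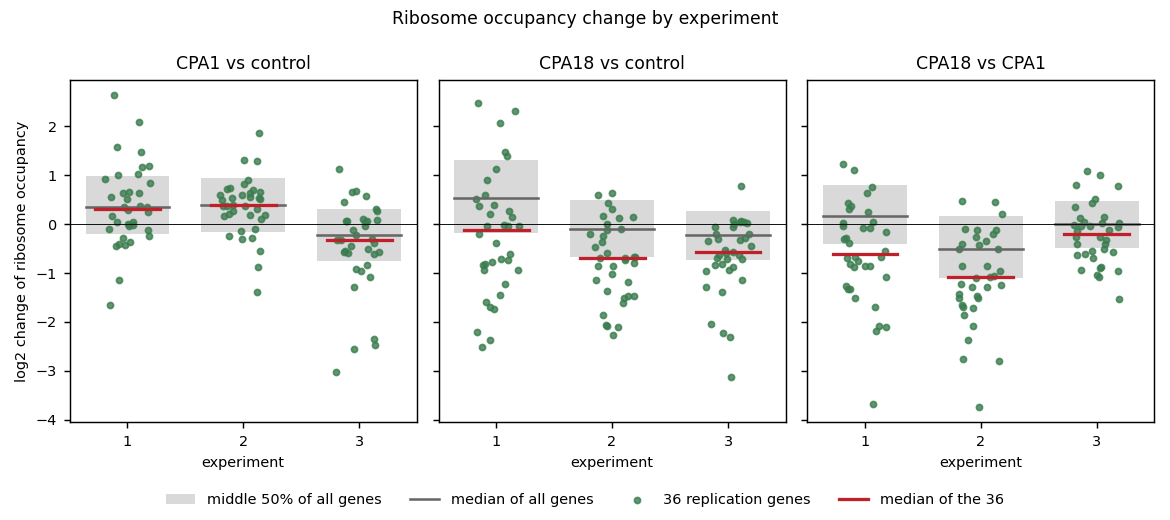
Log2 change in ribosome occupancy of 36 replication genes in each experiment for 3 comparisons, with the quartiles of all genes tested beside them. The median member lies 0.66, 0.60 and 0.35 below the median gene in CPA18 against control, and the CPA1 against control values lie around it.

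Transcript length went along with these changes. Over the 36 members, transcript length and the mRNA change against control had a Spearman correlation of -0.47, and over 6921 genes of known length -0.30. These points share their libraries and genes are not independent replicates, so the values are a description. Of 16 members up to 2086.7 nt long 7 rose, of 16 between that and 3746.7 nt 7 rose, and of 4 above it (Pole, Rfc1, Dna2 and Rrm1) 0 rose, where 38.6%, 29.3% and 13.3% of all genes in those classes, which are of equal size, rose. In Ribo-seq the correlation was -0.29 over the members and -0.19 over all genes. The median member transcript was 2208.5 nt long against 2857 nt over all genes, with a coding part of 1398 nt against 1290 nt and a 5′ UTR of 98 nt against 152 nt. When GC content and length entered the fit as an offset, 6 members rose and 2 fell in mRNA-seq against control, where 15.8% and 16.0% of all genes did. In Ribo-seq 0 rose and 11 fell, where 10.4% and 13.1% did, and the median occupancy change lay 0.42 below the median gene. With this offset Pcna passed the occupancy test against control at -0.85 (adjusted p = 0.0496), where 0.592% of all genes did.

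**Figure D4:**
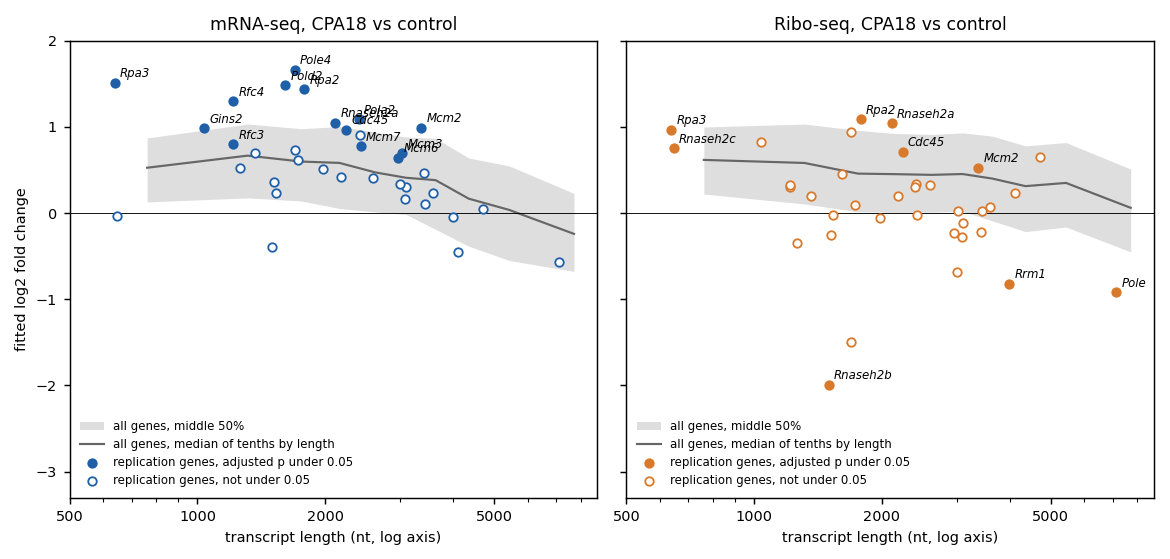
Transcript length on a log axis against the log2 change of CPA18 over control in mRNA-seq and Ribo-seq for 36 replication genes, with the median of all genes in classes of length. Shorter members lie higher in mRNA-seq (Spearman correlation -0.47), and the 4 members over 3746.7 nt are Pole, Rfc1, Dna2 and Rrm1.

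The promoters of the members were read from RefSeq on GRCm38.p6, as 250 bases before to 50 after the start, for the 32 of 41 members with an entry. E2F-type words (TTTCCCGC, TTTCGCGC, TTTGCCGC and TTTGGCGC, on either strand) were present in 12 of these 32 genes (37.5%) and in 5.6% of 5591 tested genes. CCAAT was present in 62.5% of the members and 43.7% of tested genes, and TTTGAA in 18.8% and 13.2%. Stretches of the promoter windows of the 5 members with such a word whose mRNA rose against control are shown 5′ to 3′ on the strand of the gene, with E2F-type words in capitals; they lie at chr1:20820263-20820319 (Mcm3), chr1:128359719-128359778 (Mcm6), chr5:138171834-138171893 (Mcm7), chr6:82652875-82652934 (Pole4) and chr5:151651175-151651234 (Rfc3), all on the minus strand.
Mcm3: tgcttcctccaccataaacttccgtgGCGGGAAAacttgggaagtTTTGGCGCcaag
Mcm6: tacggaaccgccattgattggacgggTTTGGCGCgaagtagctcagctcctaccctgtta
Mcm7: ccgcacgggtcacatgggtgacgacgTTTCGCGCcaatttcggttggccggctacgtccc
Pole4: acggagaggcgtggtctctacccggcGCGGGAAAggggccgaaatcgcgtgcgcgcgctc
Rfc3: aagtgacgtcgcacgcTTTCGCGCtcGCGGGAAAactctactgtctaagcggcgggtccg

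The printed stretches of Mcm3 and Rfc3 hold 2 such words each, and the promoters of Mcm6 and Mcm7 hold further ones outside the stretch shown. Of 11 tested members with it 5 rose in mRNA-seq against control (45.5%), and of 18 without it 8 rose (44.4%), where the shares among other tested genes were 27.2% and 27.7%. In Ribo-seq 0 of the 11 rose and 6 of the 18 did (33.3%), with median changes of -0.02 and 0.32, where the shares among other tested genes were 25.5% and 26.4%. The median occupancy changes were -0.69 and -0.40, and no test was made of these differences. A match of these letters is a description of the window and not a measured binding site.

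Of the genes that surround the replisome, those for licensing and firing of origins had 5 of 13 tested members up and 0 down in mRNA-seq against control, where 27.0% of all genes rose and 7.89% fell, among them the MCM loaders Cdc6 (2.48) and Cdt1 (0.96). In Ribo-seq, where 25.6% of all genes rose and 6.25% fell, 4 rose and 0 fell, with Cdc6 at 1.55 and Cdt1 at 1.21. Fork factors had 5 of 18 up and 1 down in mRNA-seq, near the share over all genes. There the histone chaperone subunit Chaf1a rose by 0.72 and topoisomerase Top2a fell by 1.5. In Ribo-seq 2 of 18 fork factors rose, below the 25.6% of all genes, and 1 fell, Top2a by 1.53. Nucleotide supply had 9 of 19 up and 0 down in mRNA-seq and 5 up and 1 down in Ribo-seq. Impdh1, of guanine nucleotide synthesis, rose by 1.43 and 2.03, while Ppat, the first enzyme of purine synthesis, fell by 0.90 in Ribo-seq. Under TMM, Chaf1a in mRNA-seq (0.38, adjusted p = 0.135) and Cdc6 in Ribo-seq (1.2, adjusted p = 0.0963) were no longer called.

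The E2F and G1/S control genes had 2 of 18 up and 3 down in mRNA-seq against control, where 27.0% of all genes rose and 7.89% fell, and 3 up and 3 down in Ribo-seq, where 25.6% rose and 6.25% fell. The CDK inhibitor Cdkn1a rose by 1.02 in mRNA-seq and 1.27 in Ribo-seq, and E2f4 rose by 0.84 and 0.94. Under TMM E2f4 was at 0.48 (adjusted p = 0.0633) and 0.58 (adjusted p = 0.239). Cdkn2c, also a CDK inhibitor, went the other way and fell by 1.37 in mRNA-seq and 0.84 in Ribo-seq. A further one, Cdkn1b, rose by 0.52 in Ribo-seq and was at 0.14 under TMM (adjusted p = 0.625). E2f7, a repressor E2F, fell by 1.68 in mRNA-seq. Cyclin gene Ccnd2 fell by 0.73 in mRNA-seq and 0.76 in Ribo-seq, and Ccna2, the S-phase cyclin, fell by 1.11 in Ribo-seq. The alternative polymerases had 0 of 4 called in mRNA-seq and 1 in Ribo-seq, the mitochondrial polymerase Polg at 1.71. At 1 h of CPA, 6.67% of all genes were called in Ribo-seq against control. Called there were 1 of 13 licensing and firing genes, 1 of 18 fork factors and 1 of 18 E2F and G1/S control genes. Mcm10 (1.55) and Cdkn1a (0.88) rose and the histone chaperone Asf1a fell by 1.79. Of nucleotide supply 0 of 19 and of the alternative polymerases 0 of 4 were called. Without the experiment as a block, Mcm10 (adjusted p = 0.059) and Asf1a (adjusted p = 0.0518) were no longer called.

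The mRNA calls rested on comparing libraries within an experiment. Without the experiment as a block, 0 of 36 members were called in mRNA-seq in either comparison with CPA18, where 1.98% of all genes were called against control and 2.16% against CPA1. In Ribo-seq, 7 members (26.5% of all genes) were called against control without it, 4 up and 3 down, and 3 (19.2%) against CPA1. Without experiment 3, 3 members rose in mRNA-seq against control, where 7.92% of all genes rose. Without the control libraries of experiment 2, 7 members rose and 0 fell in mRNA-seq against control, where 15.1% and 4.73% of all genes did. In Ribo-seq 3 rose and 3 fell, where 17.8% and 4.94% did, and the median occupancy change stayed 0.58 below the median gene. With their assays exchanged, 7 members (23.9% of all genes) were called in mRNA-seq and 0 (2.84% of all genes) in Ribo-seq against control. The median member lay 0.13 below the median gene in mRNA-seq, and the occupancy median lay 0.30 below it. With that exchange the occupancy change against control was negative for 21 members and positive for 15, with a median of -0.17. Over all genes 55.3% were positive.

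The 5 members that were not tested had 0 reads in at least 1 library. Pola1, the catalytic subunit of polymerase α, had none in the CPA1 Ribo-seq library of experiment 3 and the CPA18 library of experiment 2; Pold4 and Rnaseh1 had none in a Ribo-seq library of experiment 1, and Pole3 had none in the CPA18 Ribo-seq library of experiment 2. In the fit without a filter on reads, Pole3, the histone-fold partner of Pole4, rose in mRNA-seq by 1.47 against control (SE 0.37, adjusted p = 0.00113). Rnaseh1 rose by 1.37 (SE 0.41, adjusted p = 0.00833). Of all genes in that fit, 11.7% rose and 5.31% fell in mRNA-seq against control, and 11.3% rose and 3.35% fell in Ribo-seq. Pola1 had 27, 31 and 23 Ribo-seq reads in control and 1, 0 and 7 in CPA18, and fell by 1.54 on the scale of that fit (SE 0.53, adjusted p = 0.0272), a value that depends on the fit's prior count.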

How the data were processed

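Reads were filtered by quality and length and aligned by the authors to mouse transcripts of GRCm38 using Bowtie2. The deposited counts are raw reads per RefSeq transcript, and the authors derived the deposited RPKM from counts, library total and transcript length. How reads shared by similar transcripts were placed is not given in the sources used here. Libraries were grouped by their titles. Only transcripts detected in every one of the 18 libraries (10163, a minimum of 1 read each) were kept and summed into 6929 genes, and RPKM was summed likewise.

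Counts were tested with edgeR 4.0.16 (quasi-likelihood, R 4.3.3), with the library total as library size, the experiment as a block and Benjamini-Hochberg adjustment over all genes; ribo-ocp was the interaction of assay and treatment. SE is the fitted log2 change over the square root of F. The block follows the batch number in the labels; same-experiment libraries deviated together, with correlations of 0.104 to 0.714 in mRNA-seq and 0.0781 to 0.182 in Ribo-seq (9 pairs each). P-values of the reported fits rest on the spread left once the experiment block was taken out, within 3 experiments on 1 cell line. Alternatives were limma 3.58.1, DESeq2 1.42.0, other scalings, filters and transcript rules, and libraries left out. Fits were tested on simulated data, in which 200 genes drawn at random from all those tested were given a fall in CPA18 Ribo-seq. Of these genes, a log2 fall of 1 was called against control for 25.0% in Ribo-seq and 3.0% in ribo-ocp. A log2 fall of 2 was called for 66.5% and 50.0%. Every called member is named. Per-library values are given for 12 members called in most comparisons, with at least 1 per complex, and for Pcna and Pole, which were chosen after their values were seen. Members and gene lists were chosen with earlier results of these data known. Figures were drawn with matplotlib 3.10.9. Library totals ran from 168129 to 4755030 reads.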

Additional observations from a re-analysis of the deposited data

How the results depend on the processing

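The number of members called in mRNA-seq in CPA18 against control (14) is given with the share of all genes called under the same setting in parentheses (34.9%). It fell to 7 with DESeq2 (25.1%), 7 without the control libraries of experiment 2 (19.8%), 7 with the assays of these libraries exchanged (23.9%), 9 with totals without Ins1 and Ins2 (27.8%), 8 with the offset for GC content and transcript length (31.9%), and 0 without the replicate block (1.98%). Leaving out 1 experiment gave 3 to 14, with 3 without experiment 3 (13.2%). The number in CPA18 against CPA1 (16, 39.6%) fell to 9 with DESeq2 (23.7%), 10 with TMM (31.0%), 10 when centred on the median gene (30.5%), 10 with totals without Ins1, Ins2 and Lars2 (30.9%), 8 with the offset (29.9%), 8 with assays exchanged (16.8%) and 0 without the block (2.16%). Leaving out 1 experiment gave 8 to 14, with 8 without experiment 2 (18.9%) or 3 (22.8%).

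In Ribo-seq the number against control (9, 31.8%) fell to 5, all down, with DESeq2 (6.86% up, 8.47% down), 4 with limma at either pseudocount (21.9% and 23.5%) and 0 with assays exchanged (2.84%). Leaving out 1 experiment gave 4 to 5, with 5 without experiment 1 (22.4%) or 2 (19.7%) and 4 without experiment 3 (23.2%). Against CPA1 the number (5, 23.6%) became 9 with TMM (19.1%), 9 when centred (18.9%), 11 with the offset (19.0%), 2 with limma at a pseudocount of 0.5 (18.1%) and 3 at 1, 3 without the control libraries of experiment 2 (21.8%), 0 with assays exchanged (3.82%) and 3 without the block (19.2%). Leaving out 1 experiment gave 2 to 5, with 2 without experiment 1 (16.2%) or 2 (15.4%). In CPA1 against control leaving out 1 experiment gave 0 to 2, with 2 without experiment 3 (4.55%). The ribo-ocp count in CPA18 (0 in both comparisons) was 2 with DESeq2 against control (0.851%) and 2 against CPA1 (0.606%), all lower, and 1 with the offset against control (0.592%).

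The difference between the median member and the median gene was 0.19 in mRNA-seq in CPA18 against control. It was 0.21 with TMM, 0.22 when centred, 0.21 without Ins1, Ins2 and Lars2, 0.27 and 0.25 with limma, 0.41 with no filter, 0.16 with the stricter filter, 0.21 summed over all transcripts, 0.23 with the transcript of most reads, 0.27 without the control libraries of experiment 2, 0.06 with the offset and -0.13 with assays exchanged; leaving out 1 experiment gave 0.20 to 0.23. In CPA18 against CPA1 the mRNA difference (0.03) was 0.26 with no filter and -0.09 with the offset. In Ribo-seq against control (-0.28) it was -0.11 with no filter, -0.04 with assays exchanged and -0.56 to -0.19 with 1 experiment left out. For ribo-ocp in CPA18 against control (-0.58) it was -0.30 with assays exchanged and -0.78 to -0.49 with 1 experiment left out, the first without experiment 3.

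In CPA1 against control the mRNA difference (0.08) was 0.05 with no filter, -0.10 with assays exchanged and 0.03 to 0.13 with 1 experiment left out. The Ribo-seq difference (0.04) was 0.09 with the offset, 0.19 with assays exchanged and -0.04 to 0.07 with 1 experiment left out. The ribo-ocp difference (-0.07) was -0.12 with DESeq2, -0.12 with TMM, -0.12 when centred, -0.11 without Ins1, Ins2 and Lars2, -0.13 without the block, 0.00 without the control libraries of experiment 2, 0.34 with assays exchanged and -0.09 to -0.02 with 1 experiment left out.

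For the 44 calls of single members, 785 values were computed: 491 kept direction and call, 293 kept direction only, and 1 turned, Rfc5 mRNA in CPA18 against CPA1 at -0.09 with the offset. Without the replicate block, 34 of 44 calls were lost. The causes were not tested. The offset and the sum over all transcripts were chosen after seeing the data. The SE of the occupancy change over the members had a median of 0.40 against control.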
